A study of Mus musculus with 9 samples.

Results

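Ribosome biogenesis factors were taken as the genes that the deposited annotation places in the KEGG pathway of eukaryotic ribosome biogenesis, ko03008, leaving out symbols that start with Rpl or Rps, of which there were 0. The rule found 154 of the 56691 genes in the table. Of these, 77 could be given a role in ribosome production and 77 could not. The latter were mostly pseudogenes and genes that share a KEGG orthology number with a true factor. In the 9 libraries 50 members had a count of 0 throughout, and 85 members (72 with a role) passed the expression filter of 1 FPKM, a read count divided by gene length and library total, or more in 3 or more libraries, as did 11995 genes in all. Of the 85, 80 reached that level in all 9 libraries and 3 in only 3. Of these 3, Nxf7 passed through its control libraries and Gm6637 through its RANKL + UD libraries alone, so each had to differ. Their changes are given as a description with no test, but both stay in the counts of called or non-overlapping members unless stated. The 5 members with a role that did not pass were Rpp25, Fbll1, Nxf2, Nxf3 and Rasl2-9.

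RNA was measured in RAW264.7, an established mouse macrophage line that turns into osteoclast-like cells when given RANKL, the cytokine that drives osteoclast formation. The 3 groups of 3 libraries were untreated cells (control), cells given RANKL at 50 ng/mL, and cells given RANKL at 50 ng/mL together with uridine (RANKL + UD), all harvested at day 3. The labels call the libraries of a group biological replicates and name no separate cultures, and they give no uridine dose for these libraries. All libraries come from 1 line, so the spread between libraries is that within 1 line. Whether it covers separate cultures is not known. No group received uridine without RANKL.

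Ribosomes are built in the nucleolus. RNA polymerase I transcribes a long precursor rRNA that small nucleolar ribonucleoproteins (snoRNPs) modify, box C/D particles by methylating riboses and box H/ACA particles by turning uridines into pseudouridines. The small-subunit processome, made of the UTP-A, UTP-B, UTP-C and MPP10 subcomplexes and many single factors, folds and cuts the part that becomes the 40S subunit, while GTPases and ATPases remodel the precursor of the 60S subunit. Nucleases trim the ends, and both subunits leave the nucleus through pores with the help of Xpo1 and Ran. Growing and dividing cells make ribosomes at a high rate.

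Levels are deposited FPKM divided by the library's TMM scaling factor, called scaled FPKM. Library totals ran from 15951800 to 19746862 counts. The osteoclast markers (10 genes) summed to between 56.7 and 58.8 scaled FPKM in control, 2832 and 3041 in RANKL, and 1682 and 1736 in RANKL + UD. The macrophage markers (9 genes) summed to between 9197 and 9823, 2629 and 2888, and 2175 and 2283 scaled FPKM in the same order, and 7 markers of other cell types never exceeded 0.385 scaled FPKM in sum, with 3 of the 7 at 0 in every control library and 2 in every library of either other group. Against control, 9 of 9 tested osteoclast markers rose in RANKL, and 9 of 9 fell in RANKL + UD against RANKL. Of the 9 macrophage markers 8 fell and 1 (Cd68, by 0.60) rose in RANKL. In RANKL + UD against RANKL 7 fell and 1 (Adgre1, by 0.22) rose. Most of the macrophage sum was Lyz2, at a mean of 7835 scaled FPKM in control and 1490 in RANKL.

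Differences are log2 fold changes fitted by edgeR (quasi-likelihood test, p adjusted after Benjamini and Hochberg over the 11995 genes). A member rose or fell where its adjusted p was under 0.05. The 85 tested members were expressed at a median of 14.7 scaled FPKM over the 9 libraries, against 7.02 for all tested genes, with Ran highest at 174.5. Their annotation fitted the label: 53 of the 82 with a cellular component term (64.6%) carried the nucleolus term, against 7.89% of tested genes with such terms. Replicates lay close together, with a median coefficient of variation over the members of 5.03% in control, 4.88% in RANKL and 3.99% in RANKL + UD.

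In summed expression the members were lowest in control and highest in RANKL + UD. Such a sum weighs long and abundant genes most and does not show a move shared by the members. Summed over the 85 tested members, expression was 7251.62, 7167.32 and 7001.2 TMM-scaled CPM in the control libraries, 7546.84, 7505.2 and 7430.26 in the RANKL libraries, and 7988.54, 8021.87 and 7953.04 in the RANKL + UD libraries. The means were 7140 ± 127, 7494 ± 59.1 and 7988 ± 34.4 (SD, n = 3 each), and no group overlapped another. This order between control and RANKL depended on the scaling. As a share of raw counts the members took 0.737%, 0.736% and 0.715% in control and 0.724%, 0.722% and 0.714% in RANKL, which overlap, while the RANKL + UD libraries stood above both at 0.810%, 0.822% and 0.812%.

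The count of members called showed the same tilt towards higher expression. In RANKL against control 33 of 85 members rose (38.8%; 27.3% of all tested genes did) and 15 fell (17.6%; 30.2% of all). With uridine, RANKL + UD against RANKL, 26 rose (30.6%; 18.6% of all) and 10 fell (11.8%; 20.2% of all). In RANKL + UD against control 36 rose (42.4%; 26.7% of all) and 5 fell (5.88%; 27.3% of all). The median log2 fold changes of the members were 0.10, 0.11 and 0.14, against -0.03, 0.00 and -0.00 over all tested genes. Single changes were small, since among the called members those past 1.5-fold numbered 5 up and 4 down, 3 up and 2 down, and 3 up and 2 down, where all genes gave 10.8% and 14.1%, 4.38% and 5.49%, and 9.3% and 12.8%. Counting members whose 3 libraries all lay above those of the other group gave 34, 34 and 39 (40%, 40% and 45.9%, against 29%, 24.3% and 29.7% of all genes), and all below gave 18, 13 and 10 (21.2%, 15.3% and 11.8%, against 32%, 25% and 30.4%). The counts past 1.5-fold and of separated libraries include Gm6637 in all 3 comparisons and Nxf7 in both against control. Without the 3 members that reached the filter in 3 libraries the calls were 32 higher and 14 lower, 25 and 10, and 35 and 4. The shares of all genes given here are the reference for the counts by role and list below under TMM scaling. The 3 comparisons share libraries pairwise and are not independent of each other.

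Scaling by total counts moved the split in the comparisons with the RANKL group, where the TMM factors were 0.959 to 0.962 against 1.01 to 1.03 elsewhere. On that scale 22 members rose and 21 fell in RANKL against control, with a median of 0.013 against -0.12 over all genes (2579 higher, 4421 lower), where TMM had 3278 higher and 3628 lower. With uridine 42 rose and 7 fell against RANKL, with a median of 0.20 against 0.09 over all genes (3350 higher, 1707 lower), where TMM had 2233 higher and 2418 lower. Relative to the median of all genes the members stood 0.13 higher in RANKL against control on both scales (0.046 with quantile scaling), and 0.11 higher in RANKL + UD against RANKL (0.10 with quantile scaling). RANKL + UD against control hardly moved, with 35 higher and 5 lower (3177 and 3288 over all genes). These counts of all genes are the reference for counts by role and list on that scale. Quantile scaling gave 3218 higher and 3158 lower over all genes in RANKL against control, and 3396 and 2818 in RANKL + UD against control. RLE scaling gave 2101 higher and 2547 lower in RANKL + UD against RANKL.

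**Figure D1:**
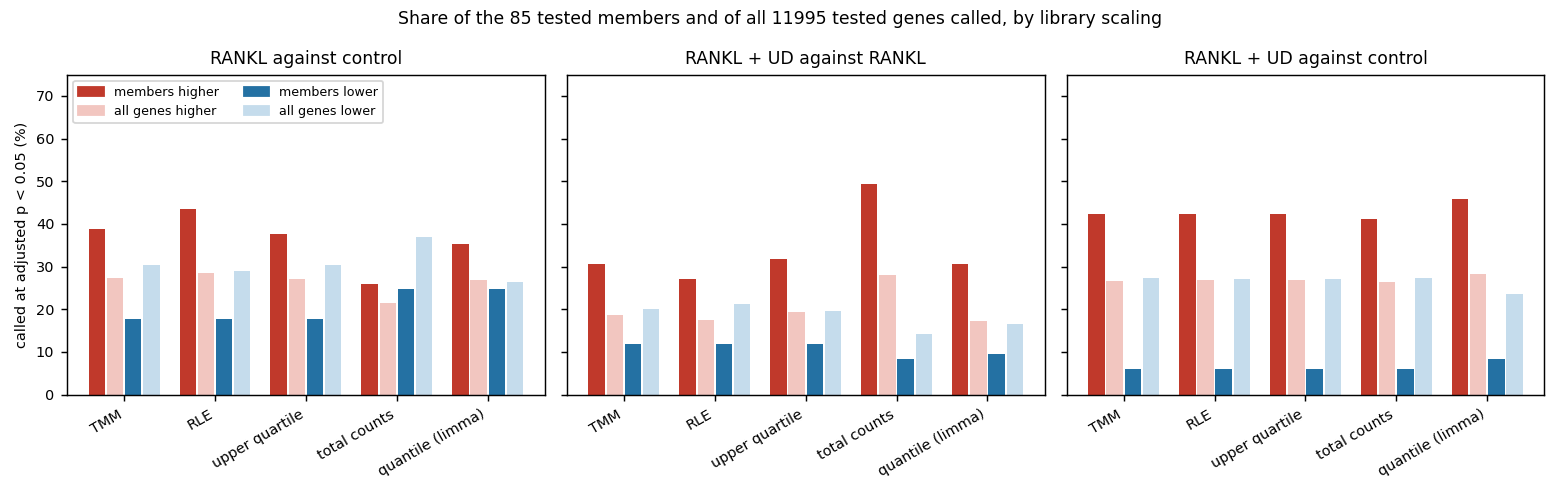
Share (%) of the 85 tested members (dark bars) and of all 11995 tested genes (pale bars) called higher (red) or lower (blue) at adjusted p under 0.05, for 5 ways of scaling the libraries (horizontal axis) in each comparison. Under TMM, 38.8%, 30.6% and 42.4% of members were called higher against 27.3%, 18.6% and 26.7% of all genes, and with total counts the share of members called lower in RANKL against control came closer to the share called higher.

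Proliferation genes moved as well. Of 14 such genes, among them Mki67 and Rrm2, 13 fell and 1 rose in RANKL against control, 14 rose in RANKL + UD against RANKL, and 5 rose and 2 fell in RANKL + UD against control. Their medians were -0.48, 0.61 and 0.10. Mki67 stood at 103 ± 6.90, 50.5 ± 5.54 and 82.4 ± 1.21 scaled FPKM (SD, n = 3) in control, RANKL and RANKL + UD. Their part in the values of the ribosome factors was not tested, and in bulk RNA a change in the share of dividing cells and a change in RNA per cell cannot be told apart.

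**Figure D2:**
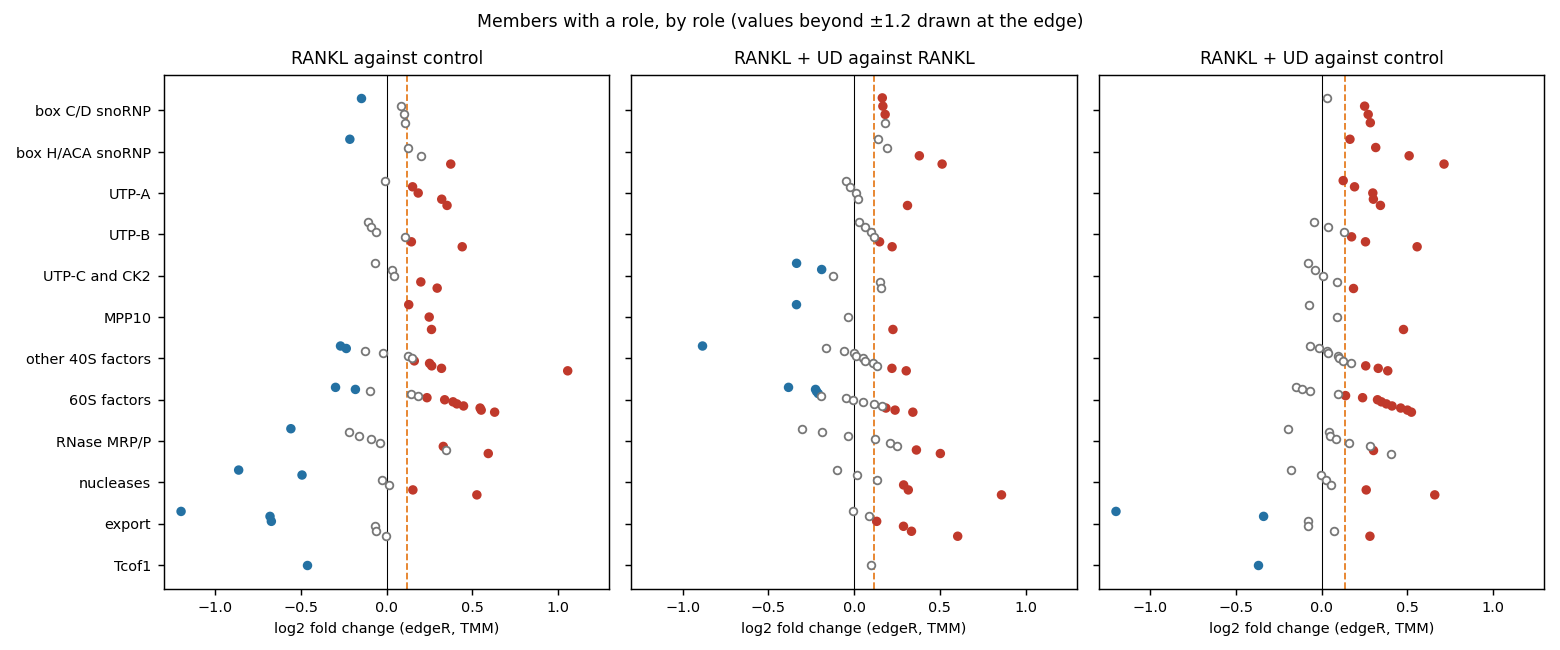
Log2 fold changes (horizontal axis, edgeR with TMM scaling) of the 72 tested members with a role, 1 point per gene, in rows by role and 1 panel per comparison. Red points rose, blue points fell, open points did not pass an adjusted p of 0.05, Nxf7 is drawn at the left edge of the export row, and the dashed line is the median of these 72 genes (0.12, 0.11 and 0.13). In RANKL + UD against control all points of the box H/ACA and UTP-A rows are red.

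Promoter sequences are shown for 5 members that the results below turn on, chosen after their values were seen. Imp4, Mdn1, Ran and Rexo2 each rose in RANKL + UD against both other groups and hold the letters CACGTG, the core of the E-box that Myc-family factors recognise. Nop10 had the largest rise in RANKL + UD against control among members with a role and has no such match. Each window runs 5′ to 3′ from 250 bases before to 50 bases after a RefSeq transcription start of build GRCm38.p6, in lower case with CACGTG in capitals. The windows lie at chr1:34439579-34439878, plus strand for Imp4, chr4:32656869-32657168, plus strand for Mdn1, chr5:129019906-129020205, plus strand for Ran, chr9:48480562-48480861, minus strand for Rexo2 and chr2:112261676-112261975, plus strand for Nop10.
Imp4: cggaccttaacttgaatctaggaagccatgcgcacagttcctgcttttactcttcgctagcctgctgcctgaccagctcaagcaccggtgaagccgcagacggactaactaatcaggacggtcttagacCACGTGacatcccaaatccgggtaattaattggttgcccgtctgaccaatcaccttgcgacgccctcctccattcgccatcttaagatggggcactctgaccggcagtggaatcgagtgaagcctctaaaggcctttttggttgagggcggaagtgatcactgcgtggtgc
Mdn1: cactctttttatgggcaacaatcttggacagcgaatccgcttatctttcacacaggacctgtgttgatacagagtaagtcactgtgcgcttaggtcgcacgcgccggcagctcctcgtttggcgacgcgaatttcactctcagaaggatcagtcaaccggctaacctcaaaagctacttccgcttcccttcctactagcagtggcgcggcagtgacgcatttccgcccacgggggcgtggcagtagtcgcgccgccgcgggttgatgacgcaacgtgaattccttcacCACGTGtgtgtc
Ran: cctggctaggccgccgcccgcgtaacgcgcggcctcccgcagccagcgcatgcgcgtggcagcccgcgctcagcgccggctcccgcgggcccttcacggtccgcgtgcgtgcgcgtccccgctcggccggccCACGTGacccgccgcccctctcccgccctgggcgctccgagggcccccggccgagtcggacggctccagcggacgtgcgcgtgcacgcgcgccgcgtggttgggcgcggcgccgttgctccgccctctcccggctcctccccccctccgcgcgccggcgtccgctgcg
Rexo2: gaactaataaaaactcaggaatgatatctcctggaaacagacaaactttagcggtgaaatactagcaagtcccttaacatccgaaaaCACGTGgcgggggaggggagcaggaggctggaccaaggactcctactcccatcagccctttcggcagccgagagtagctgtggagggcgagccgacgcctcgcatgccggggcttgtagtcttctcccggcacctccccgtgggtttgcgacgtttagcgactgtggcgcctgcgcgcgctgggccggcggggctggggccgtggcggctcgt
Nop10: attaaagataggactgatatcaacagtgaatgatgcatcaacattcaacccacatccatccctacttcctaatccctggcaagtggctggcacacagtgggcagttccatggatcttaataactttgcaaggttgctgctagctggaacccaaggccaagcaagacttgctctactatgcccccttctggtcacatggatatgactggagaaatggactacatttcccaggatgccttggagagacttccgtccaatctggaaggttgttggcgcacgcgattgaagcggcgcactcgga

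RefSeq windows matched 60 of the 72 tested members with a role by symbol, giving 68 windows. CACGTG, which reads the same on both strands, was present in 12 of the 68 (17.6%), against 10.3% of the windows of all tested genes and 7.15% of all windows in the table. The 12 belonged to Imp4, Mdn1, Nmd3, Ran, Rexo2, Rpp38, Rrp7a, Utp14b, Utp18, Utp4, Wdr43 and Xrn2. Of all 12, 7 (Utp14b among them) rose and none fell in RANKL against control. In RANKL + UD against RANKL 4 rose and 2 (Nmd3 and Utp14b) fell, and in RANKL + UD against control 9 rose and none fell. Among the 72 members with a role 40.3%, 31.9% and 45.8% rose and 18.1%, 11.1% and 4.17% fell. All tested genes gave 27.3%, 18.6% and 26.7% higher and 30.2%, 20.2% and 27.3% lower. No test was run on the 12. The 4 shown are those that rose in RANKL + UD against RANKL and do not stand for the 12. GGGCGG, the GC box, and CCAAT, searched on both strands, were in 64.7% and 36.8% of the members' windows against 62.9% and 38.3% of those of all tested genes. A match describes letters in this window and does not show that a factor binds there.

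Most core proteins of the snoRNPs were higher in RANKL + UD than in control. All 4 box H/ACA proteins and 3 of the 4 tested box C/D proteins rose against control, and none fell. Against RANKL 2 of 4 and 3 of 4 rose, and none fell. In RANKL against control 1 of 4 rose and 1 fell among the H/ACA proteins, and 1 of 4 C/D proteins fell. With quantile scaling 2 of 4 H/ACA and 2 of 4 C/D proteins rose in RANKL + UD against control.

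Nop10, the small H/ACA protein that holds the enzyme in place, was at 37.0, 37.5 and 28.5 scaled FPKM in control, 40.3, 39.1 and 39.4 in RANKL, and 64.2, 49.6 and 55.3 in RANKL + UD. All 3 RANKL + UD libraries lay above every other library. The log2 difference was 0.71 ± 0.097 (SE, adjusted p = 2.21e-06) against control and 0.51 ± 0.096 (adjusted p = 0.000215) against RANKL, while RANKL against control did not pass (0.20, adjusted p = 0.0881). Nhp2, which binds the snoRNA beside Nop10, was at 76.7, 73.9 and 66.2 in control, 90.3, 92.2 and 98.8 in RANKL and 110, 103 and 96.4 in RANKL + UD. It rose in RANKL by 0.37 ± 0.064 (adjusted p = 3.55e-05) and in RANKL + UD against control by 0.51, and the RANKL and RANKL + UD libraries overlapped (0.14, adjusted p = 0.0906). Nhp2 overlaps Rmnd5b on the opposite strand.

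Dkc1, the pseudouridine synthase dyskerin, was the H/ACA protein that fell in RANKL. Its levels were 33.6, 31.7 and 31.9 scaled FPKM in control, 27.2, 29.1 and 27.5 in RANKL, and 35.2, 36.4 and 37.4 in RANKL + UD, so the 3 groups did not overlap. RANKL was lower than control by a log2 difference of -0.22 ± 0.051 (adjusted p = 0.00111), and RANKL + UD was higher than RANKL by 0.38 ± 0.051 (adjusted p = 4.73e-06). The rise over control of 0.17 (adjusted p = 0.00871) was lost without RANKL + UD library 3 (0.14, adjusted p = 0.0504). Dkc1 overlaps Mpp1 on the opposite strand, whose own log2 differences were -0.84, 0.08 and -0.76 in the same order. Gar1, the fourth H/ACA protein, was at 25.6, 24.8 and 15.4 in control and 29.4, 27.3 and 25.4 in RANKL + UD, groups that overlap. Its rise of 0.32 (adjusted p = 0.0391) rested on control library 3, without which it was 0.12 (adjusted p = 0.229), and the call was also lost without RANKL + UD library 1 or 2 (adjusted p of at least 0.0795) and with DESeq2.

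**Figure D3:**
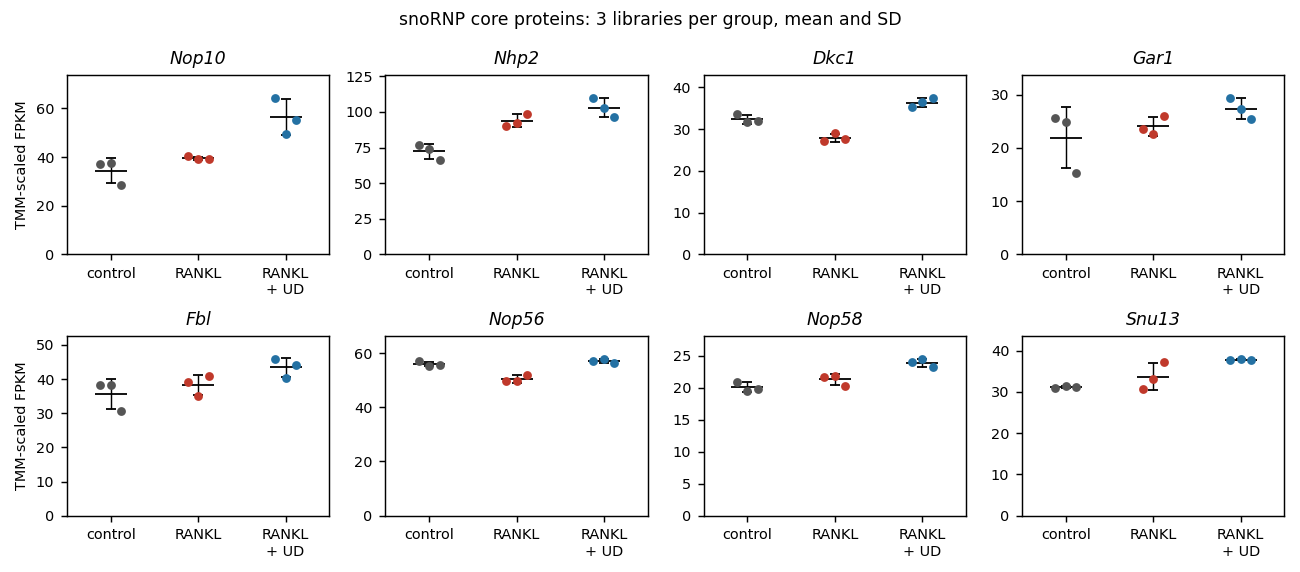
TMM-scaled FPKM (vertical axes from 0) of the 4 box H/ACA proteins (top row) and the 4 tested box C/D proteins (bottom row) in control, RANKL and RANKL + UD, with 1 dot per library and bars for mean and SD (n = 3). Nop10 in RANKL + UD, at 49.6 to 64.2, lies above both other groups, and Dkc1 and Nop56 are lowest in RANKL.

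Among the box C/D proteins, Nop56, a scaffold of the particle, resembled Dkc1. It was at 56.9, 55.2 and 55.7 scaled FPKM in control, 49.6, 49.6 and 52.0 in RANKL and 57.1, 57.7 and 56.5 in RANKL + UD. It was lower in RANKL than in control (-0.15, adjusted p = 0.00674) and higher in RANKL + UD than in RANKL (0.18, adjusted p = 0.00298), and RANKL + UD overlapped control (0.03, adjusted p = 0.606). Nop56 overlaps Idh3b on the opposite strand, which itself rose in RANKL by 0.49. Nop58, the partner scaffold, was at 20.9, 19.5 and 19.8 in control and 24.0, 24.4 and 23.2 in RANKL + UD, a rise of 0.25 (adjusted p = 0.000158), and it rose by 0.17 against RANKL (adjusted p = 0.00864). In RANKL against control its value was 0.08 (adjusted p = 0.149), and its sign turned with total counts.

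Fbl, the methyltransferase fibrillarin, was at 38.2, 38.2 and 30.6 in control, 39.1, 35.0 and 40.8 in RANKL and 45.8, 40.4 and 44.1 in RANKL + UD. Its rise over control was 0.28 ± 0.075 (adjusted p = 0.00288), which became 0.19 without control library 3 and did not pass with quantile scaling, and against RANKL it did not pass (0.18, adjusted p = 0.0582). Snu13, the protein that first binds the C/D RNA, was at 31.0, 31.5 and 31.3 in control, 30.8, 33.2 and 37.2 in RANKL and 37.7, 37.9 and 37.7 in RANKL + UD. It rose over control by 0.27 (adjusted p = 0.000666). Its rise over RANKL, 0.16 (adjusted p = 0.0348), was lost on leaving out RANKL library 1 or 2 or any one RANKL + UD library (0.10 to 0.17, adjusted p 0.0742 to 0.203). The call was also lost with RLE scaling and with DESeq2 (0.15, adjusted p 0.0504 to 0.0607). With RLE scaling 2 of the 4 box C/D proteins rose over RANKL.

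Most UTP-A proteins of the processome were called higher than in control in each treated group. Of the 5 tested UTP-A proteins, which sit first on the precursor, 4 rose in RANKL and 5 in RANKL + UD against control, and 1 rose in RANKL + UD against RANKL. Total-count scaling left 2 and 4 of them higher than control, where 2579 and 3177 of the 11995 tested genes rose. Wdr43 was at 37.4, 36.9 and 36.9 scaled FPKM in control, 48.1, 46.1 and 47.9 in RANKL and 45.5, 46.3 and 45.3 in RANKL + UD. Every treated library lay above every control library, with log2 differences from control of 0.35 ± 0.045 (adjusted p = 8.12e-07) and 0.30 ± 0.045 (adjusted p = 7.15e-06). Utp4 was at 17.6, 18.5 and 16.5, then 22.3, 22.4 and 21.1, then 23.7, 21.7 and 21.4, with differences from control of 0.32 and 0.34.

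Utp15 was the UTP-A protein that moved with uridine. It was at 11.3, 11.1 and 10.5 in control, 11.5, 10.4 and 10.9 in RANKL, and 13.0, 14.3 and 13.2 in RANKL + UD, where it rose by 0.31 ± 0.062 over RANKL (adjusted p = 0.000446) and by 0.30 over control. Heatr1, the largest UTP-A protein, rose by 0.18 in RANKL (adjusted p = 0.0021) and by 0.19 in RANKL + UD against control, from 16.5 ± 0.184 to 18.8 ± 0.152 and 18.9 ± 0.50. Its rise in RANKL did not pass with total counts, and Heatr1 overlaps Lgals8 on the opposite strand, which rose in RANKL by 0.82. Wdr75 rose least, by 0.15 and 0.13. Its call in RANKL was lost without control library 1 or RANKL library 1 or 2 (0.13 to 0.14, adjusted p 0.0549 to 0.0771), and that in RANKL + UD without any one library other than RANKL library 3 (0.10 to 0.14, adjusted p 0.0539 to 0.177).

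Of the 6 UTP-B proteins, 2 rose in RANKL, 2 in RANKL + UD against RANKL and 3 in RANKL + UD against control, and none fell. With total counts 2 of the 6 fell in RANKL, as did 4421 of the 11995 tested genes. Wdr36 led them at 10.9, 10.7 and 11.4 scaled FPKM in control, 14.7, 15.4 and 14.6 in RANKL, and between 15.8 and 16.6 in RANKL + UD. The 3 groups did not overlap, and the differences from control were 0.44 ± 0.051 (adjusted p = 1.86e-07) and 0.56 ± 0.050 (adjusted p = 5.78e-09), with 0.12 between the treated groups (adjusted p = 0.0698). Utp6 rose by 0.26 in RANKL + UD against control (adjusted p = 0.000521) and by 0.15 against RANKL (adjusted p = 0.038), the latter lost without RANKL library 1 or 3 or RANKL + UD library 1 or 2 (0.13 to 0.14, adjusted p 0.0826 to 0.118). The latter was also lost with no filter, RLE scaling or DESeq2 (0.14 to 0.15, adjusted p 0.0568 to 0.0671).

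Pwp2 and Utp18 were close to the threshold. Pwp2 rose over RANKL by 0.22 (adjusted p = 0.023), lost without RANKL library 1 or 2 or RANKL + UD library 2 or 3 (0.18 to 0.23, adjusted p 0.0521 to 0.109). Utp18 rose by 0.14 in RANKL (adjusted p = 0.0407) and 0.17 in RANKL + UD against control (adjusted p = 0.0157). The first was lost without control library 1 or 2, RANKL library 2, or RANKL + UD library 2 or 3 (0.11 to 0.16, adjusted p 0.0504 to 0.187), and the second without control library 2 or RANKL + UD library 2 or 3 (0.14 to 0.17, adjusted p 0.0506 to 0.0934). The rise of Utp18 in RANKL was also lost with no filter, total counts, quantile scaling and both limma fits on log2 FPKM (0.05 to 0.16, adjusted p 0.0679 to 0.432). Tbl3 and Wdr3 passed in no comparison, with means of 5.12, 4.90 and 5.23, and of 36.6, 34.0 and 35.5 scaled FPKM.

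The 3 MPP10 proteins all rose in RANKL, and with total counts 1 of 3 did, where 2579 of the 11995 tested genes rose. Imp4, an RNA-binding protein that helps the U3 snoRNA pair with the precursor, was at 7.28, 7.67 and 8.07 scaled FPKM in control, 9.35, 9.40 and 8.60 in RANKL and 10.7, 10.6 and 10.7 in RANKL + UD. The groups were fully separated, with steps of 0.25 (adjusted p = 0.00104) and 0.23 (adjusted p = 0.00346) and a difference of 0.47 ± 0.058 from control to RANKL + UD (adjusted p = 5.18e-07). Imp3 went the other way with uridine. It was at 43.7, 44.8 and 46.7 in control, 46.2, 58.1 and 57.8 in RANKL and 40.5, 42.5 and 45.3 in RANKL + UD, falling by 0.34 from RANKL to RANKL + UD (adjusted p = 0.00321), which did not pass in either limma fit on log2 FPKM (-0.24, adjusted p = 0.0548 and 0.0555). Its rise in RANKL, 0.26 (adjusted p = 0.0114), was lost without RANKL library 2 or 3 (0.21, adjusted p 0.0638 and 0.0731), and that of Mphosph10, 0.13 (adjusted p = 0.0386), without control library 3 or RANKL library 1 or 2 (0.10 to 0.13, adjusted p 0.0627 to 0.132).

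In the UTP-C and casein kinase 2 group both catalytic subunits of the kinase rose in RANKL and fell with uridine. Csnk2a2 was at 7.79, 7.50 and 7.60 scaled FPKM in control, 9.55, 9.25 and 9.29 in RANKL and 7.40, 7.38 and 7.47 in RANKL + UD, with the RANKL libraries above all others. It rose by 0.29 in RANKL (adjusted p = 5.91e-05), fell by 0.34 with uridine (adjusted p = 3.1e-05), and did not pass against control (-0.04, adjusted p = 0.536). Csnk2a1 was at 28.5 ± 1.80, 32.8 ± 1.40 and 28.7 ± 0.407, with differences of 0.20 and -0.19 that did not pass with total counts (adjusted p = 0.0718 and 0.117). Neither passed in either limma fit on log2 FPKM or with quantile scaling. The regulatory subunit Csnk2b passed in no comparison. Casein kinase 2 has many substrates outside the nucleolus. Rrp7a, a UTP-C protein, rose in RANKL + UD against control by 0.18 (adjusted p = 0.0187), lost without control library 1 or RANKL + UD library 2 or 3 (0.16 to 0.17, adjusted p 0.0605 to 0.0718), and Nol6 passed in none.

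Of the 11 other factors of the 40S subunit, 5 rose and 2 fell in RANKL, 2 rose and 1 fell in RANKL + UD against RANKL, and 3 rose in RANKL + UD against control. Both that fell in RANKL modify 18S rRNA. Emg1, a methyltransferase, was at 20.1, 20.2 and 20.4 scaled FPKM in control, 15.7, 17.3 and 17.4 in RANKL and 20.7, 19.8 and 21.6 in RANKL + UD. It fell by 0.27 (adjusted p = 0.000365) and rose with uridine by 0.30 (adjusted p = 0.000218), which left RANKL + UD overlapping control. Lpcat3, on the opposite strand of Emg1, gave -0.37 and 0.27. Nat10, an acetyltransferase, was at 10.3, 8.79 and 10.2 scaled FPKM on average, with differences of -0.24 (adjusted p = 0.0025) and 0.22 (adjusted p = 0.007).

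Nob1, the endonuclease that makes the 3′ end of 18S rRNA, rose in RANKL by 0.32 (adjusted p = 0.0015, but 0.0554 and 0.0558 in the limma fits on log2 FPKM) and in RANKL + UD against control by 0.33, from a mean of 15.3 scaled FPKM to 19.1 and 19.2. Riok2, a kinase of late 40S particles, rose in RANKL by 0.26 (adjusted p = 0.0032) and did not pass in the other comparisons. Ak6, which works beside Nob1, rose in RANKL + UD against control by 0.39 (adjusted p = 0.00034) and in RANKL by 0.25 (adjusted p = 0.011), a call lost without RANKL library 3 (0.15, adjusted p = 0.105). Total counts and both limma fits on log2 FPKM lost the call in RANKL as well (0.15 to 0.16, adjusted p 0.0910 to 0.144). Riok1, another kinase, rose in RANKL by 0.16 (adjusted p = 0.04998), lost on leaving out any one library (0.14 to 0.17, adjusted p 0.0569 to 0.121). Rcl1 rose in RANKL + UD against control by 0.26 (adjusted p = 0.0377). That call was lost without control library 1 or 2 or RANKL + UD library 2 or 3 (0.20 to 0.28, adjusted p 0.0549 to 0.16). The most abundant of the role, Fcf1, and Bms1 and Utp14a passed in no comparison. Utp14b had the largest changes, 1.06 ± 0.11 in RANKL and -0.88 ± 0.11 with uridine, at 2.13, 4.44 and 2.41 scaled FPKM on average. It lies within Acsl3 on the same strand, which changed by 0.99 and -0.70, so reads of these genes may be mixed, and overlap of their exons was not checked.

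Of the 13 tested factors of the 60S subunit 8 rose and 2 fell in RANKL (61.5% and 15.4%). With uridine 3 rose and 4 fell against RANKL, and against control 9 rose and none fell, or 1 fell with quantile scaling. Gtpbp4, a nucleolar GTPase of early 60S particles, was at 20.0, 19.7 and 19.7 scaled FPKM in control, 31.6, 30.2 and 30.4 in RANKL and 26.0, 27.1 and 26.1 in RANKL + UD. The groups were fully separated, with RANKL highest and RANKL + UD between, and the log2 differences were 0.63 ± 0.045 (adjusted p = 1.08e-10) in RANKL, -0.22 ± 0.045 (adjusted p = 0.000514) with uridine and 0.41 ± 0.045 (adjusted p = 1.09e-07) from control to RANKL + UD. Gnl2, the GTPase that acts later on the same particles, had the same order, at 25.2, 22.8 and 22.9, then 34.8, 34.6 and 34.5, then 29.4, 29.3 and 30.1. Its differences were 0.55, -0.23 and 0.33 (adjusted p = 1.09e-08, 0.0016 and 2.19e-05).

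Among factors of 60S export and of the last cytoplasmic steps, the GTPase Lsg1 passed in no comparison (0.14 in RANKL, adjusted p = 0.067). Nmd3, the adaptor that recruits Xpo1 to the 60S subunit, rose by 0.45 (adjusted p = 6.47e-06), from 6.67 ± 0.689 to 9.10 ± 0.416 scaled FPKM. With uridine it fell by 0.21 (adjusted p = 0.0152), lost without RANKL library 1 or RANKL + UD library 2 or 3 (-0.20 to -0.18, adjusted p 0.0512 to 0.0652). That call was also lost with total counts, quantile scaling and both limma fits on log2 FPKM (-0.20 to -0.11, adjusted p 0.0511 to 0.236). Eif6, which keeps free 60S subunits from joining 40S, rose in RANKL by 0.39 and in RANKL + UD against control by 0.38, and Efl1, the GTPase that releases Eif6, by 0.34 and 0.50. Sbds, the partner of Efl1, was at 21.1, 21.2 and 21.2 in control, 23.6, 25.5 and 25.7 in RANKL and 19.7, 19.6 and 17.9 in RANKL + UD. It rose in RANKL by 0.23 (adjusted p = 0.00654, not with total counts), fell with uridine by 0.38 (adjusted p = 0.000172), and lay below control in RANKL + UD without passing (-0.15, adjusted p = 0.0839).

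The AAA ATPases of the 60S pathway differed from each other. Mdn1, a very large ATPase that strips assembly factors, was at 14.7, 14.8 and 12.7 in control, 17.8, 17.1 and 13.1 in RANKL and 20.3, 20.4 and 20.2 in RANKL + UD, with the last group above all other libraries. It rose by 0.52 ± 0.080 over control (adjusted p = 1.12e-05) and by 0.34 over RANKL (adjusted p = 0.00185), or by 0.22 over RANKL without RANKL library 3. Nvl fell in RANKL by 0.30 (adjusted p = 2.83e-05) and rose with uridine by 0.19 (adjusted p = 0.00557), at means of 11.0, 8.92 and 10.1, and Spata5 rose in RANKL by 0.55 (adjusted p = 5.6e-05). Gnl3, the nucleolar GTPase nucleostemin, rose with uridine over RANKL by 0.24 (adjusted p = 0.000186), and its paralogue Gnl3l rose in RANKL by 0.41. Rbm28 fell in RANKL by 0.18 (adjusted p = 0.0051).

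**Figure D4:**
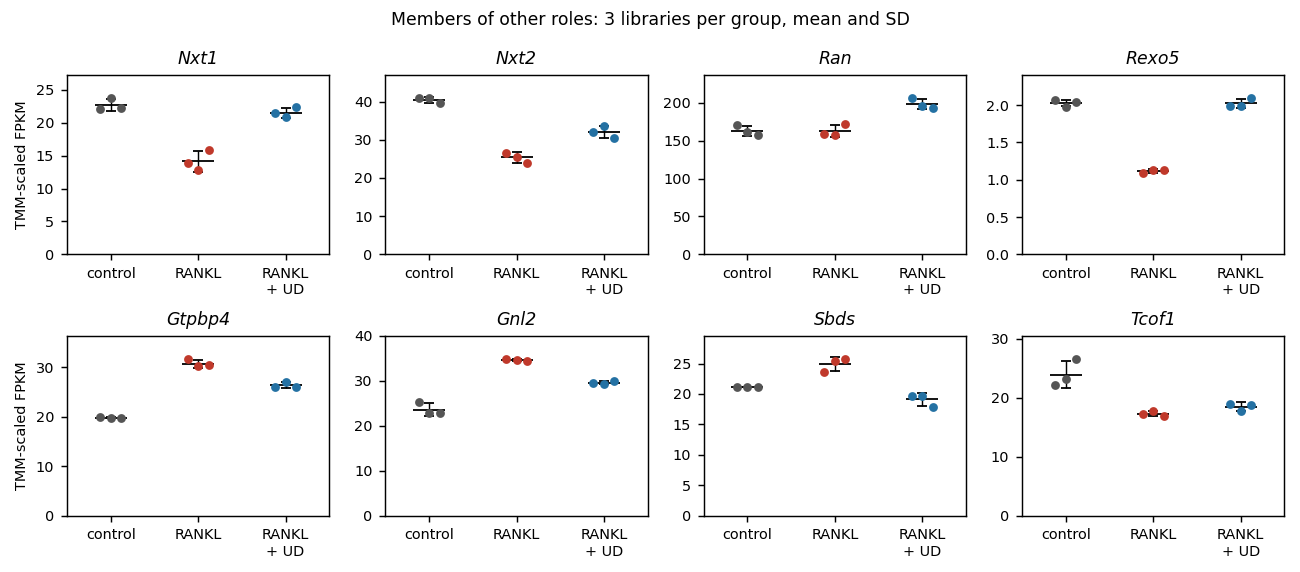
TMM-scaled FPKM (vertical axes from 0) of 8 members of other roles in control, RANKL and RANKL + UD, with 1 dot per library and bars for mean and SD (n = 3). Nxt1, Nxt2 and Rexo5 are lowest in RANKL, Gtpbp4, Gnl2 and Sbds are highest there, Ran is highest in RANKL + UD, and Tcof1 is highest in control.

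Of the 6 tested export factors none rose in RANKL and 3 were lower, Nxt1, Nxt2 and Nxf7, the last of which entered through its control libraries alone. In RANKL + UD against RANKL 4 of 6 rose. Under total counts 5 and under quantile scaling all 6, Nxf7 included, were lower in RANKL. On those scales 4421 and 3158 of the 11995 tested genes were lower. Nxt1, the small partner of the mRNA export receptor Nxf1 and of wider nuclear export, was at 22.1, 23.8 and 22.2 scaled FPKM in control, 13.9, 12.8 and 15.9 in RANKL and 21.4, 20.8 and 22.4 in RANKL + UD. It fell by 0.68 ± 0.097 (adjusted p = 3.97e-06) and rose with uridine by 0.60 ± 0.098 (adjusted p = 4.54e-05), and RANKL + UD overlapped control. Its paralogue Nxt2 was at 40.9, 40.9 and 39.5, then 26.7, 25.5 and 24.0, then 32.1, 33.5 and 30.4. It fell by 0.67 ± 0.055 (adjusted p = 1.13e-09), rose with uridine by 0.33 (adjusted p = 6.66e-05), and was still lower than control by 0.34 (adjusted p = 2.2e-05).

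Ran, the GTPase whose GTP-bound form loads export receptors, was at 170, 161 and 158 in control, 158, 157 and 172 in RANKL and 206, 195 and 193 in RANKL + UD. It rose with uridine by 0.29 ± 0.049 over RANKL (adjusted p = 8.93e-05) and by 0.28 over control (adjusted p = 5.6e-05), and it was -0.01 in RANKL against control (adjusted p = 0.927), a value whose sign turned with RLE scaling. Xpo1, the export receptor of both subunits, rose with uridine over RANKL by 0.13 (adjusted p = 0.0349), lost without RANKL library 2 or 3 or RANKL + UD library 2 or 3 (0.11 to 0.12, adjusted p 0.0913 to 0.133). The call was also lost with RLE scaling (0.12, adjusted p = 0.0572), under which 3 of the 6 export factors rose over RANKL. Nxf1 passed in none, at 32.1, 30.6 and 30.5. Nxf7, a relative of Nxf1 that passed the filter through the 3 control libraries alone, had 103, 122 and 136 counts in control, 8, 6 and 18 in RANKL, and 13, 13 and 7 in RANKL + UD. The counts in both treated groups lay below those in control.

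Among the 6 nucleases, 2 rose and 2 fell in RANKL, and 3 rose with uridine over RANKL. Rexo5, a 3′ exonuclease, was at 2.07, 1.98 and 2.04 scaled FPKM in control, 1.08, 1.13 and 1.12 in RANKL and 1.98, 1.99 and 2.10 in RANKL + UD. It fell by 0.86 ± 0.14 (adjusted p = 1.39e-05) and rose by 0.86 ± 0.14 (adjusted p = 3.62e-05), on 98 to 192 counts per library. Eri2, on its opposite strand, gave -0.49 and 0.26. Rexo1 followed the same order at means of 5.24, 3.72 and 4.63, with differences of -0.49 (adjusted p = 5e-05) and 0.32 (adjusted p = 0.0066). Rexo2, an oligoribonuclease, was at 31.6, 29.7 and 32.1, then 27.7, 32.8 and 31.2, then 36.9, 36.4 and 38.4, rising with uridine over RANKL by 0.29 (adjusted p = 0.000622).

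Drosha, better known for microRNA processing, was at 7.35, 8.06 and 8.83 in control, 11.2, 11.5 and 12.3 in RANKL and 13.2, 12.7 and 12.4 in RANKL + UD. It rose over control by 0.53 ± 0.069 (adjusted p = 1.26e-06) and 0.66 ± 0.069 (adjusted p = 5.07e-08). The difference between the treated groups did not pass (0.13, adjusted p = 0.124). Xrn2, the 5′ exonuclease of rRNA, rose in RANKL by 0.15 (adjusted p = 0.00684), which was 0.06 with total counts (adjusted p = 0.236), and Xrn1 passed in no comparison.

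Of the 8 tested subunits of RNase MRP and RNase P, 2 rose and 1 fell in RANKL, 2 rose with uridine over RANKL and 1 rose over control. Pop5 was at 6.36, 7.31 and 6.82 scaled FPKM in control, 4.34, 5.15 and 4.45 in RANKL and 6.45, 5.96 and 5.48 in RANKL + UD. It fell in RANKL by 0.56 ± 0.12 (adjusted p = 0.000351). Its rise with uridine, 0.36 (adjusted p = 0.019), was lost without RANKL library 1 or 3 or RANKL + UD library 1 (0.30 to 0.33, adjusted p 0.0602 to 0.0901). Pop1, the largest subunit, rose in RANKL by 0.33 (adjusted p = 0.0027) and in RANKL + UD against control by 0.30 (adjusted p = 0.0067). Pop7 rose in RANKL by 0.59 (adjusted p = 0.0109), lost without control library 3 or RANKL library 2 or 3 (0.45 to 0.49, adjusted p 0.0509 to 0.0772), and Rpp25l rose with uridine by 0.50 (adjusted p = 0.0201), lost without RANKL library 1 or 3 or RANKL + UD library 2 (0.40 to 0.45, adjusted p 0.0736 to 0.0931).

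Tcof1, the treacle protein that supports rRNA gene transcription, was at 22.1, 23.2 and 26.5 in control, 17.3, 17.8 and 16.9 in RANKL and 19.0, 17.7 and 18.8 in RANKL + UD. Every treated library lay below every control library. It fell by 0.47 ± 0.062 (adjusted p = 1.51e-06) and by 0.37 ± 0.062 (adjusted p = 3.15e-05) against control, and the treated groups did not differ past the threshold (0.10, adjusted p = 0.245).

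Some of the largest changes were in members without a role. Of the 13 tested, 4 rose and 2 fell in RANKL, 3 rose and 2 fell with uridine over RANKL, and 3 rose and 2 fell in RANKL + UD against control. Gm6637 is among the rises in each comparison. AY036118 was at 14.5, 18.7 and 16.3 scaled FPKM in control, 20.0, 29.8 and 30.5 in RANKL and 6.11, 6.87 and 5.95 in RANKL + UD, with a fall of 2.08 from RANKL to RANKL + UD (adjusted p = 3.76e-09). It overlaps Rn18s-rs5, an 18S rRNA-related gene, on the opposite strand, which had 61231 to 168047 counts per library and changed by 0.88, -0.47 and 0.41. Gm6637, which carries the orthology number of Snu13, had 0 counts in every control library, 7, 5 and 7 in RANKL and 21, 20 and 20 in RANKL + UD. It passed the filter through its RANKL + UD libraries alone. As a description, against a floor of 3 counts per control library it was at least 2.01-fold higher in RANKL and at least 6.67-fold higher in RANKL + UD.

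Casp8ap2, a cell-cycle and histone gene regulator listed through the orthology number of Mdn1, was at 8.07, 8.78 and 8.48 in control, 7.24, 6.72 and 7.19 in RANKL and 9.86, 10.0 and 9.73 in RANKL + UD. The groups were fully separated, with differences of -0.26 (adjusted p = 0.00116) and 0.49 (adjusted p = 2.54e-06). Tmem38b, a potassium channel of the endoplasmic reticulum, fell in RANKL by 0.36 and in RANKL + UD against control by 0.30. Tulp4 rose in RANKL + UD against control by 0.41 (adjusted p = 4.1e-05). Without these 13 members the counts were 29 higher and 13 lower, 23 higher and 8 lower, and 33 higher and 3 lower.

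Genes of ribosome production that the pathway does not list were counted in the same fit. Of all tested genes 27.3%, 18.6% and 26.7% rose and 30.2%, 20.2% and 27.3% fell in the 3 comparisons. Of 55 other nucleolar assembly factors 24 rose and 12 fell in RANKL, 18 rose and 4 fell with uridine over RANKL, and 29 rose and 5 fell in RANKL + UD against control, with medians of 0.11, 0.08 and 0.17. These were 43.6%, 32.7% and 52.7% higher and 21.8%, 7.27% and 9.09% lower. The split in RANKL was 18 higher and 17 lower with total counts, where 2579 of the 11995 tested genes rose and 4421 fell. Npm1, the abundant nucleolar chaperone nucleophosmin, was at 765 ± 36.4, 1160 ± 45.2 and 946 ± 20.6 scaled FPKM (SD, n = 3), rising by 0.60 in RANKL and falling by 0.29 with uridine. Nop2, an rRNA methyltransferase, rose at both steps, by 0.42 and 0.16.

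Of 16 tested genes of the RNA polymerase I machinery, 3 rose and 2 fell in RANKL, 5 rose and 2 fell with uridine over RANKL, and 7 rose and 1 fell in RANKL + UD against control. These were 18.75%, 31.25% and 43.75% higher and 12.5%, 12.5% and 6.25% lower. In RANKL both shares lay below those of all tested genes, 27.3% and 30.2%. With total counts 2 rose and 6 fell in RANKL, where 2579 of the 11995 tested genes rose and 4421 fell. Polr1b, the second-largest subunit of the enzyme, rose with uridine by 0.36 over RANKL (adjusted p = 0.000487), and Rrn3, the initiation factor, rose in RANKL by 0.40 (adjusted p = 1.6e-05). Taf1b, a promoter factor, fell with uridine by 0.37 (adjusted p = 0.00051). Of 13 tested exosome genes, whose products trim rRNA from the 3′ end, 2 rose and 3 fell in RANKL, 4 rose and 1 fell with uridine over RANKL, and 4 rose and 1 fell in RANKL + UD against control. The exosome shares were 15.4%, 30.8% and 30.8% higher and 23.1%, 7.69% and 7.69% lower. In RANKL these too lay below the shares of all tested genes. Polr1b is in 2 of these lists.

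Library preparation kept strand, and whether the counting used it was not given in the sources used here. Reads of a member and of an overlapping gene on its opposite strand may therefore be mixed. Overlap was taken from gene start to gene end, and whether exons overlap was not checked. Such an overlap was found for 16 tested members, of which 11, 8 and 9 were called in RANKL against control, RANKL + UD against RANKL and RANKL + UD against control. Those not flagged above are Gnl3 (with Pbrm1), Spata5 (Nudt6), Pop5 (Rnf10), Ak6 (Rad17), Rrp7a (Serhl), Tulp4 (Gm15590), Fcf1 (Arel1), Csnk2b (Gpank1) and Wdr3 (Gdap2). Pbrm1 itself rose in RANKL by 0.24. Without the 16 members 27 rose and 10 fell, 19 rose and 9 fell, and 28 rose and 4 fell.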

How the data were processed

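RNA-seq of 9 RAW264.7 libraries (3 control, 3 RANKL, 3 RANKL + UD, grouped by their labels) was analysed from 1 table. The deposited values are whole-number counts per gene and FPKM, which the authors made from the counts, exonic length and library total (recomputed for 100% of values). All 18 value columns matched a library (the RANKL ones are called the model group), and 0 were left unmapped. The study names DESeq2. The aligner, counter and annotation are not given in the sources used here. The submitters' processing notes name mm10, but only 7 of 152 members found in GRCm38 have the same coordinates in the table, so no table coordinates are printed.

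Genes reaching 1 FPKM in 3 or more libraries were tested with edgeR 4.0.16 (quasi-likelihood, TMM, all 9 libraries in 1 fit, Benjamini-Hochberg) in R 4.3.3, after the script was tested on simulated data. Totals of 15951800 to 19746862 limit genes with few counts, and intervals cover the spread between libraries. The SE of a log2 difference was taken as its size divided by the square root of the test's F statistic. Alternatives were other scalings, filters and pseudocounts (1 and 0.1), DESeq2 1.42.0, limma 3.58.1, a replicate block and leaving out each library. Members, roles and lists were chosen with earlier results of these data known. The rule for naming genes took the 5 largest non-overlapping rises and falls in each comparison, the snoRNP, UTP-A, UTP-B and MPP10 proteins, and the 3 most abundant members of other roles, with values per library or group means where space allowed. The other genes were named by their roles after their values were seen. No batch is given in the labels.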

Additional observations from a re-analysis of the deposited data

How the results depend on the processing

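No called member changed direction in any alternative. Of 125 called results for single members, 93 stayed past the threshold under every alternative and 32 lost the call in at least 1, and the cause was not tested. The 125 include the calls of Nxf7 and Gm6637. Losses named with a gene above are not always all of its losses. Settings other than leaving out a library lost the calls of 13, 9 and 6 members in RANKL against control, RANKL + UD against RANKL and RANKL + UD against control. In RANKL against control the count that rose was 21 with limma on log2(FPKM + 1) or log2(FPKM + 0.1) and 5 with an unadjusted p under 0.05 and over 1.5-fold. All genes moved too in these limma fits, to 2500 and 2498 of 11995 higher and 4277 and 4259 lower. Their medians were -0.09 and -0.11, and the members stood 0.11 and 0.13 above them. The count that fell was 9 without the export, nuclease, casein kinase 2 and RNase MRP roles and 4 with the fold rule. The median was 0.12 with no filter, RLE, DESeq2, the 6 libraries alone or members with a role, 0.13 without those 4 roles, 0.013 with total counts, 0.016 in either limma fit and 0.053 with quantile scaling. In RANKL + UD against RANKL the count that rose was 42 with total counts, 17 without those roles and 3 with the fold rule, and the count that fell was 6 in either limma fit and 2 with the fold rule. Over all genes 3350 rose and 1707 fell with total counts. The limma fits gave 2986 and 2982 higher and 1556 and 1536 lower, with medians of 0.07 and 0.09. The median was 0.10 with RLE or DESeq2, 0.20 with total counts, 0.17 and 0.20 with limma, and 0.096 without those roles or without members overlapping an opposite-strand gene. In RANKL + UD against control 3 rose and 2 fell by the fold rule, 3 fell without those roles or with role members alone, and the median was 0.18 with no filter, 0.12 with limma on log2(FPKM + 1), 0.16 with quantile scaling and 0.17 without those roles.

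Leaving out 1 library gave 27 to 33 higher and 15 to 18 lower (median 0.074 to 0.12) in RANKL against control, 22 to 31 higher and 8 to 11 lower (0.09 to 0.12) in RANKL + UD against RANKL, and 31 to 36 higher and 5 to 7 lower (0.12 to 0.17) in RANKL + UD against control. Over all 11995 genes these fits gave 2994 to 3277 higher and 3316 to 3605 lower, 1853 to 2461 and 2094 to 2604, and 2871 to 3247 and 2973 to 3347. With the replicate block the counts were 35 and 15, 28 and 10, and 36 and 5. Over all genes they were 3346 and 3694, 2347 and 2518, and 3268 and 3334. The deviations of same-numbered libraries correlated by -0.03 to 0.097, none over 0.1, and those of other-numbered libraries by -0.10 to 0.064. The numbers were not taken as a pairing, and these values do not settle whether there was one. Set against the libraries of each other group, a library correlated best with its own number in 11 of 18 cases. The sign turned for 2 results that had not been called, both in RANKL against control. Nop58 was -0.0048 with total counts and -0.0041 and -0.0042 with limma. Ran was 0.0083 with no filter, 0.011 with RLE or DESeq2, 0.015 with the 6 libraries alone, and between -0.047 and 0.025 on leaving out 1 library. The counts for role members alone, without opposite-strand overlaps and without members that reached the filter in 3 libraries were chosen after seeing the data. Depth limits Nxf7, Gm6637 and Rexo5, which had few counts.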
